A study of Homo sapiens with 12 samples.

Results

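The genes described here govern the passage of a cell from G1 into S phase: the D-type cyclins CCND1, CCND2 and CCND3, the cyclin CCNE1, the kinases CDK4 and CDK6, the kinase inhibitors CDKN1B, CDKN1C and CDKN2A, and the retinoblastoma gene RB1. They were chosen by symbol, and 10 of the 60660 genes in the files carry these names. Their mRNA was measured by mRNA sequencing in LNCaP and 22Rv1 cells, established prostate cancer lines that express the androgen receptor. LNCaP derives from a lymph node metastasis, and 22Rv1 from a xenograft that regrew after castration. Each line was transfected with NC-mimic, a control RNA, or with a synthetic mimic of the PIWI-interacting RNA piR-4447944 (piR-4447944 mimic), and all cells were kept in androgen-deprived medium with 10% charcoal-stripped serum. There were 3 libraries in each of the 4 groups, numbered 1 to 3. The mimic was carried in by lipofection and is a chemically modified RNA, so the treated groups hold an amount of piRNA set by transfection and not by the cell. By flow cytometry, the study reported more cells in S phase and fewer in G0/G1 with the mimic in both lines. The comparison of mimic with NC-mimic asks whether the mRNA of these regulators differed.

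Cyclin D binds CDK4 or CDK6, and the active pair begins to phosphorylate the RB1 protein, which in its unphosphorylated form holds back E2F transcription factors. Cyclin E with CDK2 then completes this phosphorylation, and E2F targets for DNA replication are transcribed. CDKN2A encodes INK4a, which binds CDK4 and CDK6 directly, and ARF, which acts through the p53 pathway, while CDKN1B (Kip1) and CDKN1C (Kip2) bind cyclin-kinase pairs. In prostate cells the androgen receptor promotes entry into S phase in part through D-type cyclins and their kinases, and androgen withdrawal slows it. Much of the control of CCNE1 and CDKN1B acts on the proteins, through phosphorylation and degradation, which mRNA levels do not show.

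The 12 libraries held 12161091 to 22179601 expected counts. The 9 genes of a luminal epithelial marker list were at 1 TPM (a level scaled for transcript length and library size) or more in every library, with summed levels of 4845 to 5301 TPM in LNCaP and 1893 to 2536 TPM in 22Rv1. Summed markers of basal cells reached at most 1.05 TPM, of endothelial cells 1.89 TPM and of leukocytes 6.02 TPM, and CDH5 was at 0 in every library. The 5 fibroblast markers summed to between 4.90 and 44.4 TPM. In 22Rv1 the library of piR-4447944 mimic replicate 3 stood apart from the others. Its 15 S phase genes (among them MCM2, PCNA and TYMS) summed to 937 TPM against 2351 and 2384 in the other two mimic libraries, its 10 low-oxygen genes (among them CA9, VEGFA and NDRG1) to 5995 TPM against 562 and 1115, and mitochondrially encoded genes made up 4.37% of its TPM against 10.2% to 11.9% in the remaining 22Rv1 libraries. NC-mimic replicate 3 of 22Rv1 lay in the same direction by less, with 1663 TPM for the S phase genes against 2264 and 2441. The LNCaP libraries numbered 3 also had the lower S phase sums, with 878 TPM against 1037 and 1109 for NC-mimic and 773 TPM against 1082 and 1051 for the mimic, and the low-oxygen sum of LNCaP mimic replicate 3 was 776 TPM against 635 in each of the other two. The comparisons of the members that use 22Rv1 are therefore also given without its libraries numbered 3, and the part of these shifts in any member's value was not tested.

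The kinases CDK4 and CDK6 bind the same D-type cyclins, but their mRNA levels lay far apart in both lines. The upstream sequences of this pair are shown for that reason, as a description of the letters there, in RefSeq's coordinates (GRCh38.p14) and for bases 226 to 86 before the annotated start, on the minus strand, with each CACGTG, the palindromic E-box that MYC and related factors bind, in capitals.
CDK4, chr12:57752396-57752536: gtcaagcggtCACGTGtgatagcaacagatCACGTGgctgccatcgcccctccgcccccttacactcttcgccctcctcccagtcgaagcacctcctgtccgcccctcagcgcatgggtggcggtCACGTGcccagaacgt
CDK6, chr7:92836659-92836799: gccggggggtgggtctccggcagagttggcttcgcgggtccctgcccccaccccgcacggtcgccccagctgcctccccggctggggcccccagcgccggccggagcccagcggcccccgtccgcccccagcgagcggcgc
The bounds of the stretch were set to span the E-boxes of CDK4, and the same bases were taken for CDK6. The CDK4 stretch holds 3 E-boxes, which begin 216, 196 and 101 bases before the start, and the CDK6 stretch holds 0. Any part of these letters in the mRNA levels was not tested. The GC content is 64.5% in the CDK4 stretch and 83.0% in the CDK6 stretch. Of 35116 RefSeq windows of the 250 bases before a start, 6.34% held CACGTG on either strand (the motif is its own reverse complement) and 0.0797% held at least 3. RefSeq windows were at hand for 7 of the 10 genes (11 windows), and the CDK4 window was the 1 that held CACGTG. The E2F motif TTTNGCGC, searched on both strands, was in 1.51% of all windows and in 0 of these 11.

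**Figure D1:**
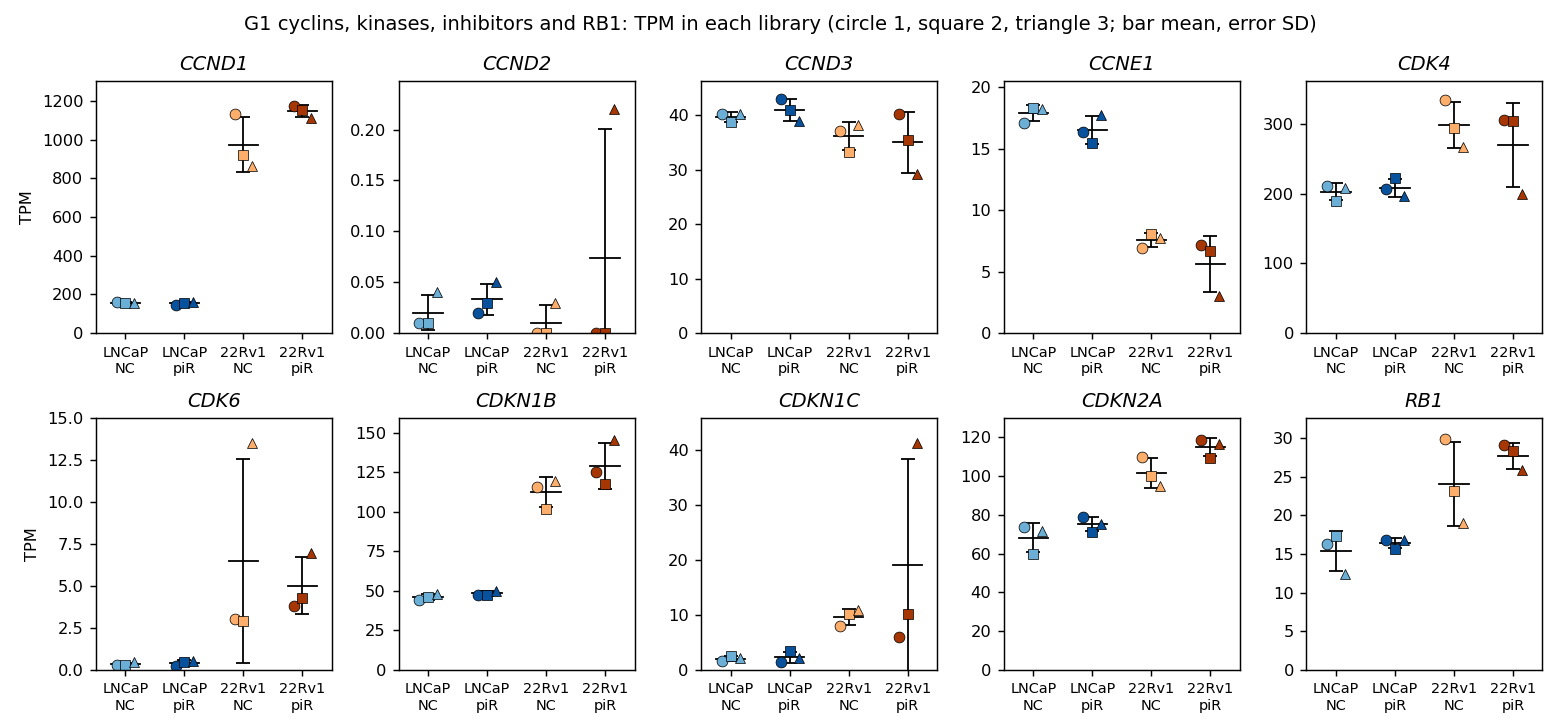
TPM (vertical axes, linear, from 0) of each gene in each library of the 4 groups (horizontal axes; NC, NC-mimic; piR, piR-4447944 mimic); circles, squares and triangles are libraries 1, 2 and 3, and bars are the mean with the SD of 3 libraries, cut at 0. CCND1 lies at 864.94 TPM or more in every 22Rv1 library and at 162.05 TPM or less in every LNCaP library. Most of the spread of CDK6 in 22Rv1, and of CDKN1C in 22Rv1 with the mimic, comes from libraries numbered 3.

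The order of the levels in TPM, which is scaled for transcript length, differed between the lines. These are bulk samples, in which fewer cells expressing a gene and less of its RNA per cell cannot be told apart. In LNCaP CDK4 led, followed by CCND1, CDKN2A, CDKN1B, CCND3, CCNE1, RB1, CDKN1C, CDK6 and CCND2, in NC-mimic and piR-4447944 mimic libraries alike. Neighbours in this order did not overlap in their library ranges except CCNE1 and RB1. In 22Rv1 CCND1 led, followed by CDK4, CDKN1B, CDKN2A, CCND3, RB1, CDKN1C, CCNE1, CDK6 and CCND2, again in both treatments. There CDKN1B overlapped with CDKN2A, CDKN1C with CCNE1, and CCNE1 with CDK6, and in the mimic libraries RB1 also overlapped with CDKN1C.

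CCND1 (ENSG00000110092.4, chr11:69641156-69654474, plus strand, hg38 with the gene bounds of GENCODE release 44) encodes cyclin D1, the D-type cyclin most often amplified or overexpressed in cancers. In LNCaP it was at 162.05, 156.17 and 154.22 TPM in NC-mimic libraries 1, 2 and 3, and at 146.27, 155.98 and 161.08 TPM in the mimic libraries. In 22Rv1 it was at 1133.61, 922.13 and 864.94 TPM with NC-mimic, and at 1173.93, 1151.85 and 1113.02 TPM with the mimic. Every 22Rv1 library lay far above every LNCaP library, while mimic and NC-mimic ranges overlapped in both lines. Among all 60660 genes ranked by mean TPM it stood at place 142 in 22Rv1 with NC-mimic and at place 856 in LNCaP with NC-mimic. The log2 fold change of 22Rv1 over LNCaP was 2.88 (SE 0.11, edgeR adjusted p = 8.65e-07) in NC-mimic libraries, a 7.34-fold difference, and 3.06 (SE 0.09, edgeR adjusted p = 6.80e-06) in mimic libraries. In NC-mimic libraries the mean transcript length that RSEM assigned to CCND1 was 3206 to 3494 bases in LNCaP and 3614 to 3987 bases in 22Rv1. It was thus longer in every 22Rv1 library of that comparison, as for 13.9% of the genes tested. In mimic libraries it was 3142 to 3615 bases in LNCaP and 3619 to 3755 bases in 22Rv1. The edgeR fold changes rest on counts and are not scaled for this length. The exons of CCND1 share 497 bases with LTO1 on the opposite strand, which was at 14.9 to 36.6 TPM over the 12 libraries.

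CCND2 (ENSG00000118971.9, chr12:4269771-4305353, plus strand), the cyclin D2 gene, was at or near 0 in both lines. Its expected counts were 1, 1 and 3 in LNCaP with NC-mimic and 1, 2 and 4 with the mimic, and 0, 0 and 2 in 22Rv1 with NC-mimic. In the 22Rv1 mimic libraries they were 0, 0 and 15, so that the library numbered 3 held nearly all of the counts in this line. The exons of CCND2 share 999 bases (12.5% of its exon bases) with the protein-coding gene ENSG00000285901 on the same strand. The part of that overlap in these counts was not tested. A limit of 3 counts corresponds to 0.135 to 0.247 CPM (counts scaled to library size) in these libraries, for counting error alone, and CCND2 did not pass the filter on low counts and was not tested.

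CCND3 (ENSG00000112576.13, chr6:41934934-42050357, minus strand), the cyclin D3 gene, was the member with the most even level. It was at 40.29, 38.67 and 40.20 TPM in LNCaP with NC-mimic and at 42.97, 40.95 and 38.92 TPM with the mimic. Its level in 22Rv1 was 37.06, 33.20 and 38.19 TPM with NC-mimic and 40.29, 35.43 and 29.27 TPM with the mimic. For 22Rv1 over LNCaP edgeR gave a log2 fold change of -0.15 (SE 0.10, edgeR adjusted p = 0.219) in NC-mimic libraries and -0.30 (SE 0.14, edgeR adjusted p = 0.108) in mimic libraries, and CCND3 was the tested member that did not pass in either. With all 12 libraries in 1 fit the second value was -0.31 and passed.

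The make-up of the D-type cyclins differed accordingly. CCND1 supplied 79.8% ± 0.469 (SD, n = 3) of the summed TPM of the 3 genes in LNCaP NC-mimic libraries and 79.0% ± 1.63 (SD, n = 3) in LNCaP mimic libraries. For 22Rv1 the share was 96.4% ± 0.548 (SD, n = 3) in NC-mimic libraries and 97.0% ± 0.369 (SD, n = 3) in mimic libraries. No 22Rv1 library overlapped with an LNCaP library in this share, and the treatments overlapped within each line. The remainder was CCND3 in nearly its whole amount.

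CCNE1 (ENSG00000105173.14, chr19:29811991-29824312, plus strand) encodes cyclin E1, the partner of CDK2 at the end of G1, and was the 1 member that passed the test as lower in 22Rv1. In LNCaP it was at 17.14, 18.32 and 18.28 TPM with NC-mimic and at 16.40, 15.44 and 17.72 TPM with the mimic. In 22Rv1 it was at 6.95, 8.04 and 7.74 TPM with NC-mimic and at 7.19, 6.66 and 3.04 TPM with the mimic. The lowest value of the 12 was in 22Rv1 mimic replicate 3. The log2 fold change of 22Rv1 over LNCaP was -1.40 (SE 0.23, edgeR adjusted p = 0.00106) in NC-mimic libraries and -1.54 (SE 0.33, edgeR adjusted p = 0.00758) in mimic libraries. Without mimic replicate 3 of 22Rv1 the latter was -1.25.

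CDK4 (ENSG00000135446.17, chr12:57747727-57756013, minus strand) was the far more abundant of the kinases. LNCaP libraries held 211.77, 189.08 and 207.68 TPM with NC-mimic and 207.13, 222.54 and 196.14 TPM with the mimic. 22Rv1 libraries held 334.17, 294.85 and 267.52 TPM with NC-mimic and 305.54, 304.09 and 199.84 TPM with the mimic. The mimic library numbered 3 was the only 22Rv1 library within the LNCaP range in TPM. Between the lines, 22Rv1 over LNCaP, the log2 fold change was 0.61 (SE 0.11, edgeR adjusted p = 0.00140) in NC-mimic libraries and 0.44 (SE 0.14, edgeR adjusted p = 0.0352) in mimic libraries. The latter missed the threshold in 8 of the alternatives tried, and without 22Rv1 mimic replicate 3 it was 0.58 and passed. Exons of CDK4 and of TSPAN31, on the opposite strand, share 1369 bases (44.2% of the exon bases of CDK4), and TSPAN31 was at 29.4 to 75.0 TPM. Whether counting used strand is not given in the sources used here, so reads of this overlap cannot be told apart.

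CDK6 (ENSG00000105810.10, chr7:92604921-92836573, minus strand) was at 0.27, 0.27 and 0.44 TPM in LNCaP with NC-mimic and at 0.20, 0.46 and 0.51 TPM with the mimic. Its level in 22Rv1 was 3.03, 2.89 and 13.51 TPM with NC-mimic and 3.82, 4.26 and 6.94 TPM with the mimic. Every 22Rv1 library lay above every LNCaP library, and in all 4 groups the library numbered 3 was the highest. The transcript is long, and the 3 LNCaP NC-mimic libraries together still held 155 counts. For 22Rv1 over LNCaP edgeR gave a log2 fold change of 4.08 (SE 0.56, edgeR adjusted p = 4.57e-04) in NC-mimic libraries, the widest difference of any member, and 3.23 without NC-mimic replicate 3 of 22Rv1. In mimic libraries it was 3.72 (SE 0.42, edgeR adjusted p = 4.71e-04). CDK6 nevertheless supplied little of the summed TPM of both kinases: in NC-mimic libraries 0.160% ± 0.0448 (SD, n = 3) for LNCaP and 2.23% ± 2.24 (SD, n = 3) for 22Rv1. In mimic libraries the shares were 0.187% ± 0.0831 (SD, n = 3) and 1.99% ± 1.18 (SD, n = 3). The libraries numbered 3 carried much of the 22Rv1 values, which were 0.935% with NC-mimic and 1.31% with the mimic over libraries 1 and 2.

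CDKN1B (ENSG00000111276.11, chr12:12685498-12722369, plus strand) encodes Kip1, the inhibitor that accumulates in resting cells. In LNCaP it was at 43.89, 46.38 and 48.03 TPM with NC-mimic and at 47.47, 47.56 and 49.95 TPM with the mimic. In 22Rv1 it was at 116.02, 101.92 and 119.63 TPM with NC-mimic and at 125.08, 117.42 and 145.56 TPM with the mimic. The lines did not overlap, whereas the treatments did. The log2 fold change of 22Rv1 over LNCaP was 1.35 (SE 0.10, edgeR adjusted p = 1.78e-05) in NC-mimic libraries and 1.43 (SE 0.11, edgeR adjusted p = 1.01e-04) in mimic libraries.

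CDKN1C (ENSG00000129757.14, chr11:2883213-2885775, minus strand) encodes Kip2, a relative of Kip1 and a maternally expressed imprinted gene. LNCaP libraries held 1.59, 2.43 and 2.08 TPM with NC-mimic and 1.32, 3.36 and 2.18 TPM with the mimic. 22Rv1 libraries held 7.87, 10.15 and 10.78 TPM with NC-mimic and 5.91, 10.12 and 41.19 TPM with the mimic. One library, mimic replicate 3, was far above all others. Between the lines, 22Rv1 over LNCaP, the log2 fold change was 2.18 (SE 0.31, edgeR adjusted p = 5.48e-04) in NC-mimic libraries and 3.20 (SE 0.77, edgeR adjusted p = 0.0122) in mimic libraries, and the latter was 1.96 without mimic replicate 3 of 22Rv1.

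CDKN2A (ENSG00000147889.18, chr9:21967752-21995301, minus strand) gives rise to the INK4a and ARF transcripts, which a gene-level row does not separate. Its level in LNCaP was 73.45, 59.64 and 71.64 TPM with NC-mimic and 78.79, 71.23 and 75.43 TPM with the mimic. Its level in 22Rv1 was 109.91, 99.90 and 94.87 TPM with NC-mimic and 118.64, 109.50 and 116.63 TPM with the mimic. For 22Rv1 over LNCaP edgeR gave a log2 fold change of 0.58 (SE 0.13, edgeR adjusted p = 0.00485) in NC-mimic libraries and 0.51 (SE 0.11, edgeR adjusted p = 0.00646) in mimic libraries. Its exons share 593 bases with the antisense RNA CDKN2B-AS1, which was at 0.74 to 4.19 TPM.

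RB1 (ENSG00000139687.16, chr13:48303744-48599436, plus strand) was present in both lines. In LNCaP it was at 16.35, 17.39 and 12.40 TPM with NC-mimic and at 16.82, 15.66 and 16.87 TPM with the mimic. In 22Rv1 it was at 29.93, 23.18 and 19.07 TPM with NC-mimic and at 29.10, 28.31 and 25.87 TPM with the mimic. The lowest 22Rv1 library still lay above the highest LNCaP library. The log2 fold change of 22Rv1 over LNCaP was 0.73 (SE 0.16, edgeR adjusted p = 0.00485) in NC-mimic libraries and 0.76 (SE 0.12, edgeR adjusted p = 0.00180) in mimic libraries.

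**Figure D2:**
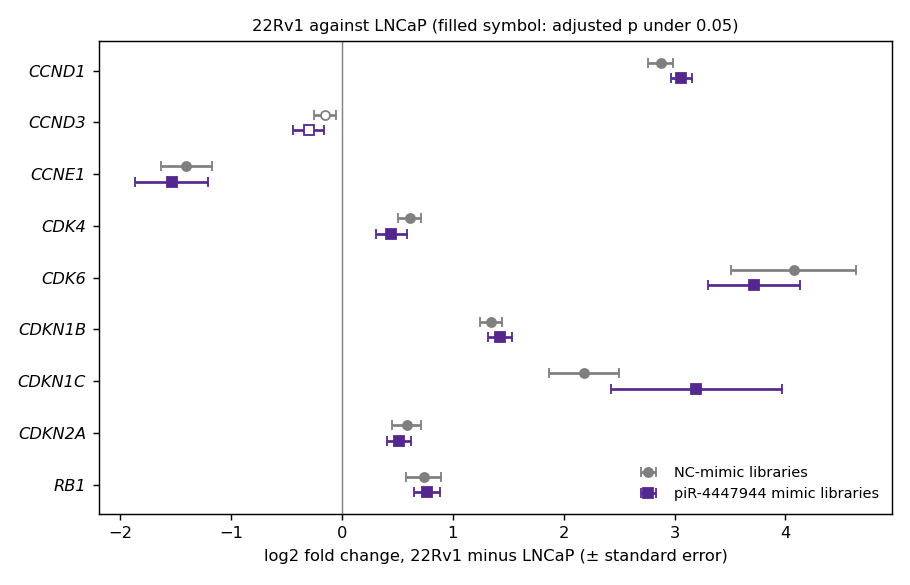
Log2 fold change of 22Rv1 minus LNCaP with its standard error (horizontal axis) for the 9 members tested (vertical axis), in NC-mimic libraries (grey circles) and piR-4447944 mimic libraries (purple squares); filled symbols have an edgeR adjusted p under 0.05. CDK6 (4.08 and 3.72), CDKN1C (2.18 and 3.20) and CCND1 (2.88 and 3.06) lie furthest to the right, CCNE1 (-1.40 and -1.54) to the left, and CCND3 has open symbols.

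In all, 8 of the 9 members tested differed between the lines in NC-mimic libraries, 7 higher and 1 lower in 22Rv1, and the median log2 fold change of the 9 was 0.73 against 0.01 over all genes tested. Of all genes tested, 58.4% differed and 30.9% were higher in 22Rv1, so a difference between these lines was common. In mimic libraries, which share none with that comparison, the counts were again 8 of 9, with 7 higher and 1 lower, where 52.4% of all genes differed and 28.2% were higher. The direction was the same for each of the 9 in both. All 9 members tested had CPM ranges that did not overlap between the lines in NC-mimic libraries, as had 67.2% of all genes, and all 9 in mimic libraries, as had 64.5% of all genes. The exact permutation test of a single member can give no p below 0.1 with 3 against 3 libraries. The labels do not say whether the numbered libraries are separate cultures, so all p-values measure the spread between these libraries, which may be technical. Without the 22Rv1 libraries numbered 3 it was again 8 of 9 in each comparison, where 66.2% and 69.5% of all genes differed. The log2 fold changes in NC-mimic and mimic libraries were then 2.97 and 3.08 for CCND1, -0.17 and -0.19 for CCND3, -1.63 and -1.25 for CCNE1, 0.70 and 0.58 for CDK4, and 3.23 and 3.35 for CDK6. For the inhibitors they were 1.29 and 1.33 for CDKN1B, 2.07 and 1.96 for CDKN1C, and 0.63 and 0.54 for CDKN2A, and for RB1 0.85 and 0.86. The same 8 members passed without any 1 library in the NC-mimic comparison. In the mimic comparison CDK4 no longer passed without LNCaP mimic replicate 1, 2 or 3 or 22Rv1 mimic replicate 1 or 2. CDKN1C no longer passed there without LNCaP mimic replicate 1 or 3. The share of all genes that passed in these fits is not given here.

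For the piR-4447944 mimic against NC-mimic, no member passed the test in either line. In LNCaP 0 of the 9 members tested had an adjusted p under 0.05 in edgeR, as did 0.0% of all 16244 genes tested, and 0 had an unadjusted p under 0.05, against 2.67% of all genes. In 22Rv1 0 of 9 passed, as did 0.0% of all 16898 genes, and 0 had an unadjusted p under 0.05, against 1.48% of all genes. The DESeq2 Wald test with adjusted p also passed 0 of 9 in each line, and its share of all genes is not given here. Over both lines, with the line as a term, 0 of 9 passed (0.0% of all genes; at an unadjusted p under 0.05, 0 of 9 against 1.82% of all genes). The difference of the mimic effect between the lines also passed for 0 of 9 (0.0% of all genes; at an unadjusted p under 0.05, 0 of 9 against 3.26% of all genes).

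In LNCaP the standard errors were narrow, and the biological coefficient of variation was 0.0964. The log2 fold change of mimic over NC-mimic was -0.02 (SE 0.06) for CCND1, 0.03 (SE 0.06) for CDK4 and 0.07 (SE 0.07) for CDKN1B. For CCND3 it was 0.09 (SE 0.08), for CCNE1 -0.10 (SE 0.11) and for RB1 0.05 (SE 0.10). The low-count members CDK6, at 0.16 (SE 0.35), and CDKN1C, at 0.06 (SE 0.34), were measured with less precision. The value furthest from 0 in units of its error was that of CDKN2A, at 0.20 (SE 0.10, edgeR adjusted p = 0.999). In CPM CDKN2A was at 36.2, 29.0 and 37.2 with NC-mimic and at 40.4, 38.0 and 39.4 with the mimic. The 3 mimic libraries thus lay above the 3 NC-mimic libraries in CPM but overlapped with them in TPM. It was the 1 member of 9 whose CPM ranges did not overlap between treatments, which 7.86% of all genes shared. Without NC-mimic replicate 2 the value was 0.10, and without NC-mimic replicate 3 it was 0.27.

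In 22Rv1 the biological coefficient of variation was 0.343, and the errors were wider. The log2 fold change of mimic over NC-mimic was 0.14 (SE 0.13) for CCND1, -0.08 (SE 0.16) for CCND3, -0.25 (SE 0.41) for CCNE1, -0.15 (SE 0.18) for CDK4 and -0.23 (SE 0.52) for CDK6. For the inhibitors it was 0.13 (SE 0.13) for CDKN1B and 0.11 (SE 0.13) for CDKN2A, and for RB1 0.06 (SE 0.18). CDKN1C had the value furthest from 0, at 1.04 (SE 0.66, edgeR adjusted p = 0.999), and -0.17 without mimic replicate 3. None of the 9 had CPM ranges that did not overlap between treatments, against 8.79% of all genes. With both libraries numbered 3 left out, CCNE1 was at 0.29, CCND3 at 0.07, CDK6 at 0.29 and CDKN1C at -0.06, so that the sign of these 4 turned. CCND1 was then at 0.08, CDK4 at -0.09, CDKN1B at 0.11, CDKN2A at 0.11 and RB1 at 0.05, and 0 of the 9 passed, as against 0.0234% of all genes. Without mimic replicate 3 alone CDK4 was at -0.0018 and CDKN1B at 0.05. CDKN2A was above 0 in both lines, and over both lines its log2 fold change was 0.16 (SE 0.08, edgeR adjusted p = 0.999).

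**Figure D3:**
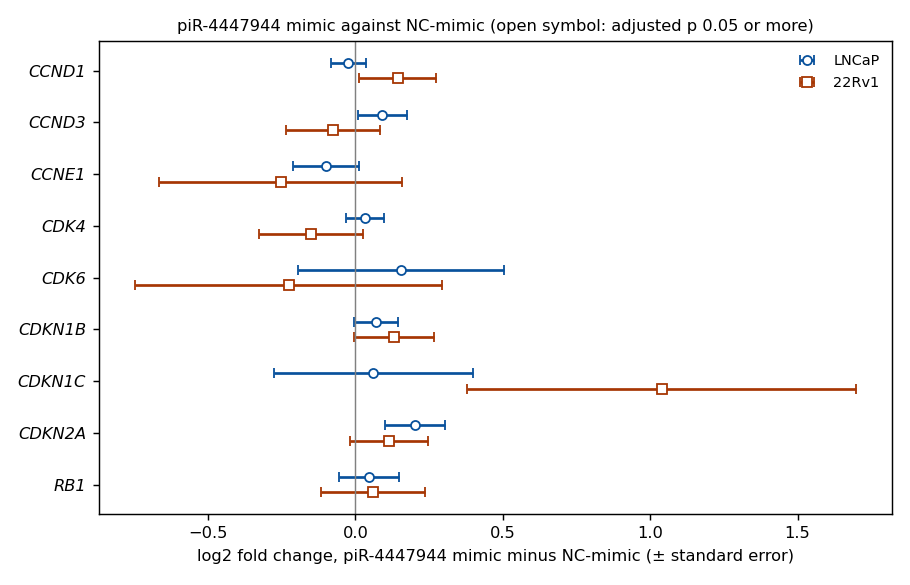
Log2 fold change of piR-4447944 mimic minus NC-mimic with its standard error (horizontal axis) for the 9 members tested (vertical axis) in LNCaP (blue circles) and 22Rv1 (brown squares); open symbols have an edgeR adjusted p of 0.05 or more. All symbols are open. CDKN1C in 22Rv1 lies at 1.04 with the widest error (0.66), and every other symbol lies between -0.25 and 0.20.

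The spread within 22Rv1 followed the numbers of the libraries for several members. In mimic replicate 3 the CPM of CDKN1C was 47.6 against 7.07 and 11.7 in mimic replicates 1 and 2, a log2 ratio of 2.28 to their mean. In the same library CCNE1 was at 3.49 CPM against 8.86 and 7.13, a log2 ratio of -1.09, and CDK4 at 184 CPM against 255 and 259, a log2 ratio of -0.48. CDK6 was at 59.9 CPM against 33.9 and 31.4 there, and at 92.3 CPM against 26.9 and 26.5 in NC-mimic replicate 3, so that it was high in both libraries numbered 3. CCNE1 was not low in NC-mimic replicate 3, at 10.2 CPM against 7.28 and 5.81. RB1 was lower in both, with log2 ratios of -0.39 and -0.32, and CDKN1B higher in both, with 0.16 and 0.26. The low-oxygen and S phase sums of these libraries are given above, and their part in the members' values was not tested. CDKN1A, the gene of the inhibitor Cip1, was singled out after its values were seen: it was at 217.79 TPM in NC-mimic replicate 3 against 99.86 and 96.78, and at 461.12 TPM in mimic replicate 3 against 92.44 and 97.31. In LNCaP CDKN1A stayed between 219.56 and 257.78 TPM in all 6 libraries.

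**Figure D4:**
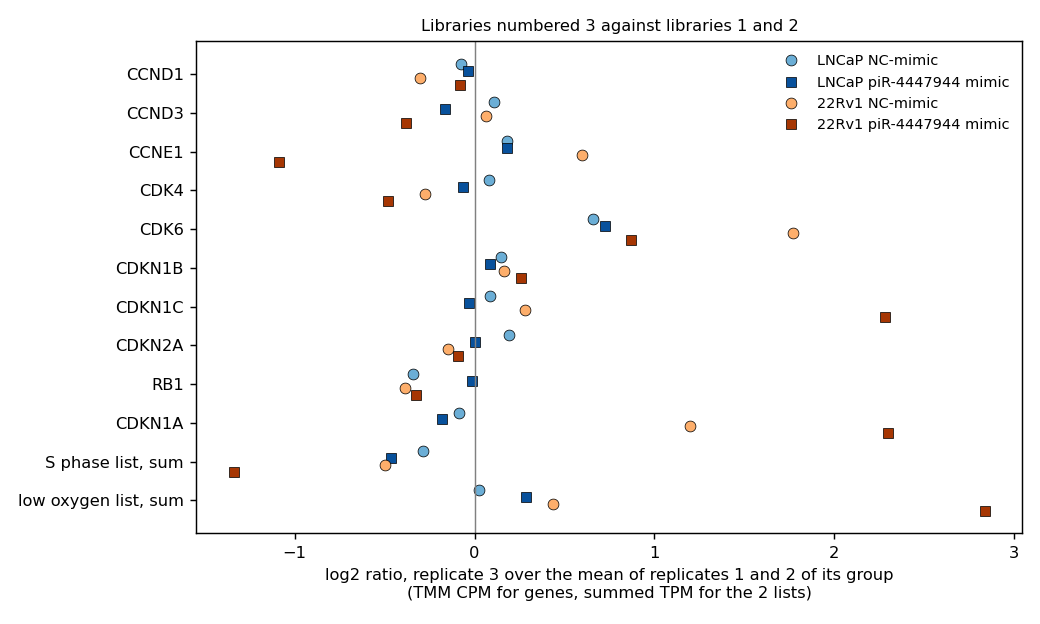
Log2 ratio (horizontal axis) of the library numbered 3 to the mean of libraries 1 and 2 of its group, for the 9 members tested, CDKN1A and the summed S phase and low-oxygen lists (vertical axis), in CPM with 0.5 added for genes and in summed TPM for lists. In 22Rv1 with mimic (brown squares) CDKN1C (2.28) and CDKN1A (2.30) lie to the right with the low-oxygen sum (2.84), and CCNE1 (-1.09) to the left with the S phase sum (-1.34).

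Another 29 genes of the same pathway, listed by role, were all tested: further cyclins and kinases, inhibitors, the RB1 relatives, E2F factors with their partners, the ubiquitin ligase parts that turn over cyclins and inhibitors, and the CDK-activating kinase. For the mimic 0 of 29 passed by edgeR adjusted p in LNCaP, in 22Rv1 and over both lines, as did 0.0% of all genes in each. At an unadjusted edgeR p under 0.05 it was again 0 of 29 in each, against 2.67%, 1.48% and 1.82% of all genes. The median log2 fold change of the 29 was -0.03 in LNCaP, with 10 above 0, and -0.13 in 22Rv1, with 8 above 0, against -0.0027 and -0.0052 over all genes. In LNCaP the smallest unadjusted p-values belonged to the inhibitor CDKN2C, at 0.21 (SE 0.11), the RB1 relative RBL2, at -0.13 (SE 0.07), and the ligase scaffold CUL1, at -0.10 (SE 0.07). In 22Rv1 they belonged to FBXW7, the ligase subunit that recognises cyclin E, at 0.53 (SE 0.34), the E2F partner TFDP1, at -0.29 (SE 0.20), and CCNH of the CDK-activating kinase, at -0.33 (SE 0.24). Without mimic replicate 3 these values were 0.0014, -0.10 and -0.11, and the median of the 29 was 0.0014, with 15 above 0. FBXW7 was at 37.72 TPM in 22Rv1 mimic replicate 3 and at 8.31 to 11.91 TPM in the other libraries of that line. For the mimic in 22Rv1, the 15 S phase genes had a median log2 fold change of -0.27, with 0 above 0. Of these 0 passed, as did 0.0% of all genes. Without mimic replicate 3 the median of the S phase genes was 0.06, with 9 above 0. Without both 22Rv1 libraries numbered 3 it was -0.06, with 3 above 0.

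Between the lines, 19 of the 29 pathway genes differed in NC-mimic libraries, 13 higher and 6 lower in 22Rv1. The shares were 65.5% differing and 44.8% higher, against 58.4% and 30.9% of all genes. In mimic libraries 10 differed, 8 higher and 2 lower (34.5% and 27.6% differing and higher, against 52.4% and 28.2% of all genes). Without 22Rv1 mimic replicate 3 it was 22, or 75.9%, against 69.5% of all genes. The widest differences in NC-mimic libraries were those of E2F2, at a log2 fold change of 3.08 (SE 0.16, edgeR adjusted p = 2.80e-06), CKS1B, the cofactor that helps degrade Kip1, at 2.23 (SE 0.12, edgeR adjusted p = 3.09e-06), the inhibitor CDKN2D, at 2.00 (SE 0.21, edgeR adjusted p = 1.10e-04), and E2F7, at 1.70 (SE 0.25, edgeR adjusted p = 6.20e-04). E2F2 was at 2.49 to 3.84 TPM in LNCaP and at 26.62 to 29.40 TPM in 22Rv1 with NC-mimic. All 15 S phase genes were higher in 22Rv1 in NC-mimic libraries, with a median log2 fold change of 1.12, where 30.9% of all genes were higher. In mimic libraries 5 of the 15 passed as higher, against 28.2% of all genes, and without 22Rv1 mimic replicate 3 all 15 did, against 35.4% of all genes.

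**Figure D5:**
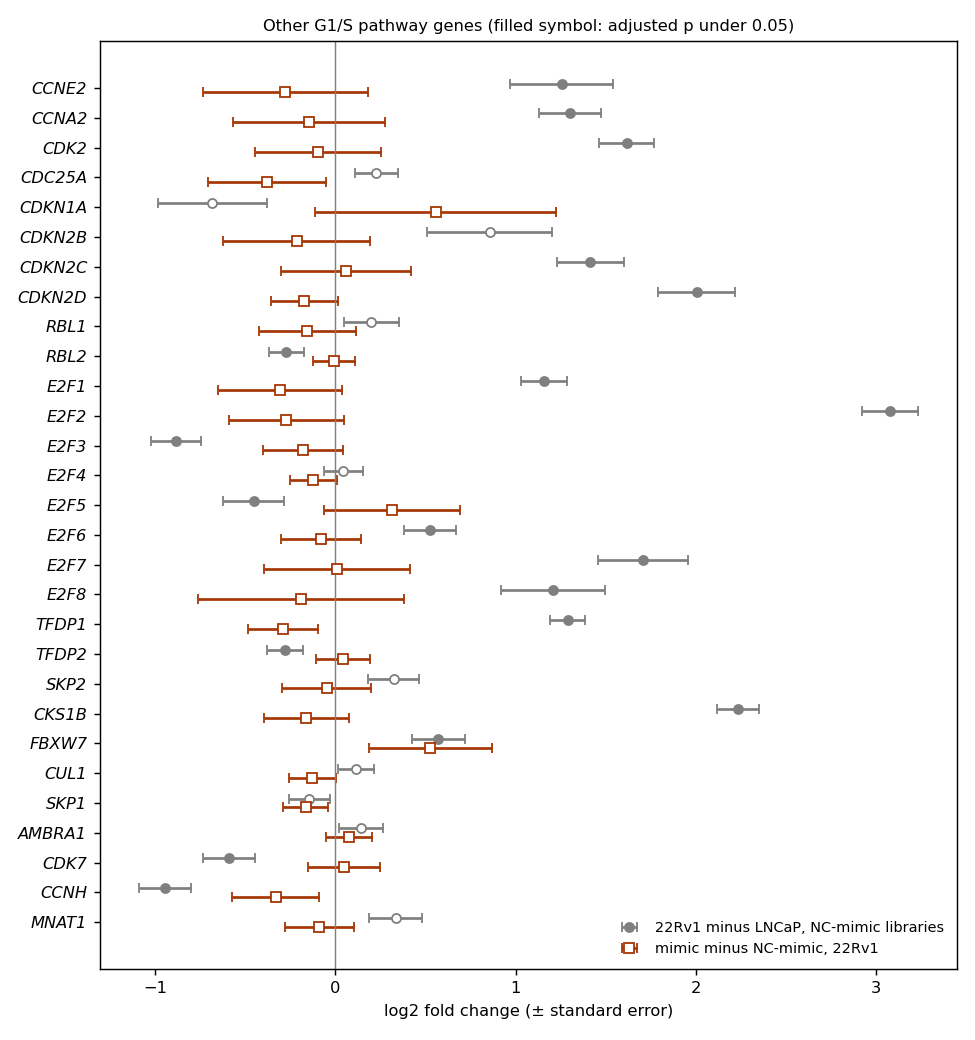
Log2 fold change with its standard error (horizontal axis) of 29 further G1/S pathway genes (vertical axis) for 22Rv1 minus LNCaP in NC-mimic libraries (grey circles) and for mimic minus NC-mimic in 22Rv1 (brown squares); filled symbols have an edgeR adjusted p under 0.05. Of the grey symbols 19 are filled, with E2F2 (3.08) and CKS1B (2.23) furthest to the right, and of the brown symbols 0 are filled.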

How the data were processed

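RNA of 12 samples (LNCaP and 22Rv1, NC-mimic or piR-4447944 mimic, 3 libraries a group) was sequenced as mRNA. Per the methods and processing notes, the authors aligned reads with STAR 2.7.1a to hg38, quantified genes with RSEM 1.3.0 and tested with DESeq2 1.34.0 in R 4.1.1. The deposited files hold RSEM expected counts, TPM and mean transcript length per gene. Strand of counting and gene annotation release are not given in the sources used here.

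Expected counts deposited by the authors were rounded and tested over all genes with edgeR 4.0.16 (quasi-likelihood, TMM, filterByExpr, Benjamini-Hochberg adjustment, threshold 0.05) in R 4.3.3, each comparison in its own libraries, and over both lines in 1 fit of 12. DESeq2 1.42.0 and limma 3.58.1 (log2 of TPM plus 1 or 0.1, genes of at least 1 TPM in 3 libraries) were alternatives, as were a count minimum of 10, no filter, the study's rule (p under 0.05 and a log2 fold change over 0.2), a replicate block and leaving out libraries. The code was tested on simulated data. Levels between genes were compared in TPM. CPM are TMM-scaled. Gene bounds and exon overlaps come from GENCODE release 44, and promoters from RefSeq. Total counts limit precision, and floors cover counting error only. No libraries were identical.

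The members and gene lists were chosen with earlier results of these data known. Of the pathway list, the text names genes that passed with the mimic, or failing any the 3 with the smallest p in each line, and the 4 widest line differences in NC-mimic libraries. The main fits did not pair libraries by number, in either line, and the replicate block was an alternative. In 22Rv1 the numbers may pair libraries, since deviations from group means correlated at 0.281, 0.229 and 0.422 across 18720 genes. This rests on the values and not on the labels, and replicates 1 and 2 correlated with each other's number at 0.276 and 0.151, so the numbers 1 and 2 are not set apart by it. In LNCaP the correlations were 0.0351, 0.0034 and 0.246, so that there too number 3 had the highest. A deposited TPM table of the whole series repeats these values and was not used.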

Additional observations from a re-analysis of the deposited data

How the results depend on the processing

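With the mimic, 0 of 9 members and 0 of 29 pathway genes passed by adjusted p under all alternatives run, in each line, over both lines and for the difference between lines. In the main edgeR fits of these comparisons 0.0% of all genes passed too. The fit with the replicate block, which pairs the libraries by number, gave 0 members in each, and with the block CDKN1C in 22Rv1 was at 0.59. By the study's unadjusted rule, CDKN2A met it in LNCaP with the replicate block (0.21) or without NC-mimic replicate 3 (0.27), and CDKN1C in 22Rv1 without mimic replicate 1 (1.45). That CDKN1C value includes mimic replicate 3, at 47.6 CPM against 11.7 in mimic replicate 2. The share of all genes meeting the rule in these fits is not given here. In the main edgeR fits, 2.67% of all genes in LNCaP and 1.48% in 22Rv1 had an unadjusted p under 0.05. Shrunken DESeq2 values were not run for the difference between lines. Values of 5 members in 22Rv1 turned sign, among them CDKN1C from 1.04 to -0.17 without mimic replicate 3, and the causes were not tested.

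Leaving out 1 library at a time, the log2 fold changes in LNCaP went from -0.0033 to 0.061 for CDK4, -0.18 to 0.45 for CDK6, -0.23 to 0.29 for CDKN1C and -0.055 to 0.14 for RB1. In 22Rv1 they went from -0.19 to 0.047 for CCND3, -0.55 to 0.050 for CCNE1, -0.56 to 0.63 for CDK6, -0.17 to 1.45 for CDKN1C and -0.056 to 0.21 for RB1. Over both lines they went from -0.022 to 0.071 for CCND3, -0.094 to 0.015 for CDK4, -0.25 to 0.41 for CDK6 and -0.053 to 0.78 for CDKN1C. The difference between lines went from -0.43 to 0.15 for CCNE1, -0.74 to 0.48 for CDK6, -0.027 to 0.13 for CDKN1B, -0.24 to 1.42 for CDKN1C, -0.16 to 0.020 for CDKN2A and -0.10 to 0.16 for RB1. Without both 22Rv1 libraries numbered 3, CCND3 was at 0.070, CCNE1 at 0.29, CDK6 at 0.29 and CDKN1C at -0.058 in 22Rv1, CCNE1 at 0.029 and CDK6 at 0.24 over both lines, and the difference between lines was 0.37 for CCNE1, 0.11 for CDK6, -0.13 for CDKN1C and -0.0071 for RB1. Over both lines CCND3 was at -0.0024 with no filter and at -0.0064 and -0.0067 by limma with 1 and 0.1 added, and CDK6 was at 0.030 with the replicate block and at 0.0019 and 0.065 by limma. The difference between lines for CDKN2A was 0.037 and 0.036 by limma.

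Between the lines in mimic libraries, 10 pathway genes passed (34.5%, against 52.4% of all genes). Leaving out 1 library at a time the number was 8 to 22, the latter without 22Rv1 mimic replicate 3. It was also 22 without both libraries numbered 3 (in each case 75.9%, against 69.5% of all genes). For the lower end the share of all genes is not given here. On CPM, which is not scaled for length, the CCND1 share of the D-type cyclins was 88.0% and 87.2% in LNCaP and 98.3% and 98.6% in 22Rv1 (NC-mimic, then mimic), and the CDK6 share of both kinases 1.66%, 1.81%, 15.6% and 15.7%, with transcript length as the difference by construction. At these depths CCND2 lay too near the floor to test.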

Other observations

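The genes whose pattern over the 12 libraries was nearest to each member were sought among 15991 genes, by the root mean square difference of log2 CPM after centring each gene on its own mean. For CCND1 they were SMPD3 (0.13) and ZBTB10 (0.14), against a spread of CCND1 itself of 1.48. For CDK4 they were NSD2 (0.05) and SLC25A3 (0.06), for RB1 NHLRC2 and INTS6 (both 0.08), and for CCNE1 DTD2 and GPR157 (both 0.15). For CDKN1C, whose own spread was 1.31, they were ENO2 (0.26), the gene of neuronal enolase, and PRELID2 (0.29), and for CDK6 PCOLCE2 (0.28) and HPSE (0.29). For CDKN1B they were AL357556.3 (0.09) and WDFY2 (0.11), for CDKN2A C6orf47 (0.09) and RPARP-AS1 (0.10), and for CCND3 MAGEA6 and SERBP1 (both 0.06). The own spread was 0.16 for CCND3, 0.30 for CDK4 and CDKN2A, and 0.40 for RB1. It was 0.70 for CDKN1B, 0.80 for CCNE1 and 1.88 for CDK6. A small difference therefore says less for members of small spread, such as CCND3. For members of wide spread, such as CCND1, the pattern is largely the difference between the lines. Such a difference was common, as 58.4% of all genes tested differed in NC-mimic libraries. For CDKN1C the pattern also holds the high value of 22Rv1 mimic replicate 3. Members and nearest genes were measured in the same libraries at the same depth.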
